A study of Homo sapiens with 12 samples.

Results

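The 31 genes described here encode proteins of the lysosome, the acidic compartment in which cells take apart proteins, glycans and lipids. They were taken by gene symbol from a fixed list of names. All 31 were found among the 29890 genes listed for 5637 cells and among the 58735 genes listed for 786-O cells. By role they divide into 8 proteases and the protective protein, 9 glycosidases, 5 enzymes of lipid breakdown, counting the sulfatase ARSA, 3 soluble proteins that are not enzymes, and 6 membrane proteins.

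The study measured RNA by sequencing in 12 libraries from human cancer cell lines in which CBX7, a chromobox subunit of Polycomb repressive complex 1, was silenced with a short hairpin RNA (shCBX7) or left with a control hairpin (sh control). 5637 is a bladder carcinoma line and 786-O a clear cell renal carcinoma line. Each line gave 3 shCBX7 and 3 sh control libraries, all from cells in RPMI-1640 with fetal bovine serum and with no drug named in the labels. The series title sets CBX7 beside EZH2, FGFR3 and cisplatin sensitivity. The labels do not say how many hairpins were used, and nothing says that the 3 libraries of a group came from separate cultures. The p-values therefore measure only how these libraries vary, and that variation may be technical. The columns of the deposited tables call the silenced arm "Si" and not sh. Levels are FPKM, which divide the fragments of a gene by its length and by a size for the library, so genes can be compared within a library.

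Lysosomal enzymes are made in the endoplasmic reticulum, tagged with mannose 6-phosphate in the Golgi and carried to the lysosome by receptors. There, a proton pump called the V-ATPase keeps the lumen acidic, and heavily glycosylated proteins such as LAMP1 and LAMP2 line the membrane. Many of the genes share a palindromic E-box, the CLEAR element, which is read by the transcription factors TFEB, TFE3 and MITF. Inherited loss of single members causes lysosomal storage diseases.

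The reads recovered in listed genes ranged from 18044030 to 29681194 per library in 5637 and from 16384151 to 18868874 in 786-O. The targeted gene was low in all libraries. In 5637, CBX7 stood at 2.19, 2.17 and 2.42 FPKM in the controls and at 1.86, 1.80 and 1.97 after shCBX7, so 83.3% was left (log2 change -0.18, limma adjusted p = 0.0188). That call is lost without shCBX7 library 2 (adjusted p = 0.0608) or without control library 3 (adjusted p = 0.0586). In 786-O, CBX7 went from 1.63, 1.75 and 1.49 to 1.01, 0.892 and 1.07 FPKM, with 61% left (log2 change -0.40, adjusted p = 0.00364). The log2 changes here and below are of FPKM + 1, which makes them smaller than the folds at low levels. An exact permutation test (two-sided) gave 0.1 in each line, the smallest p that 3 libraries against 3 allow. KRT5, EPCAM, CDH1 and TP63 marked 5637 as epithelial, and PAX8, VIM, VCAM1 and CDH6 were present in 786-O, where LRP2 was at or near 0. Of the other bladder epithelial markers, KRT8, KRT18 and KRT19 were also abundant in the 786-O controls (125, 55.3 and 179 FPKM). In bulk RNA, fewer cells of a type and less RNA per cell cannot be told apart.

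Silencing of CBX7 went with mostly small decreases of the lysosomal genes in 5637 and with mostly larger increases in 786-O. Changes are given as log2 differences of FPKM + 1, tested with limma at an adjusted p under 0.05 over every gene that averaged 0.5 FPKM or more in the line. In 5637, 30 of the 31 genes could be tested: 15 passed (50%, against 44.5% of all tested genes), 4 of them higher (13.3%, against 24.4%) and 11 lower (36.7%, against 20.2%). In 786-O all 31 were tested: 23 passed (74.2%, against 51% of all tested genes), 20 of them higher (64.5%, against 24.7%) and 3 lower (9.68%, against 26.2%). The median log2 change was -0.07 over the genes in 5637, where all tested genes had 0.01, and 0.21 in 786-O, where all tested genes had -0.01.

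**Figure D1:**
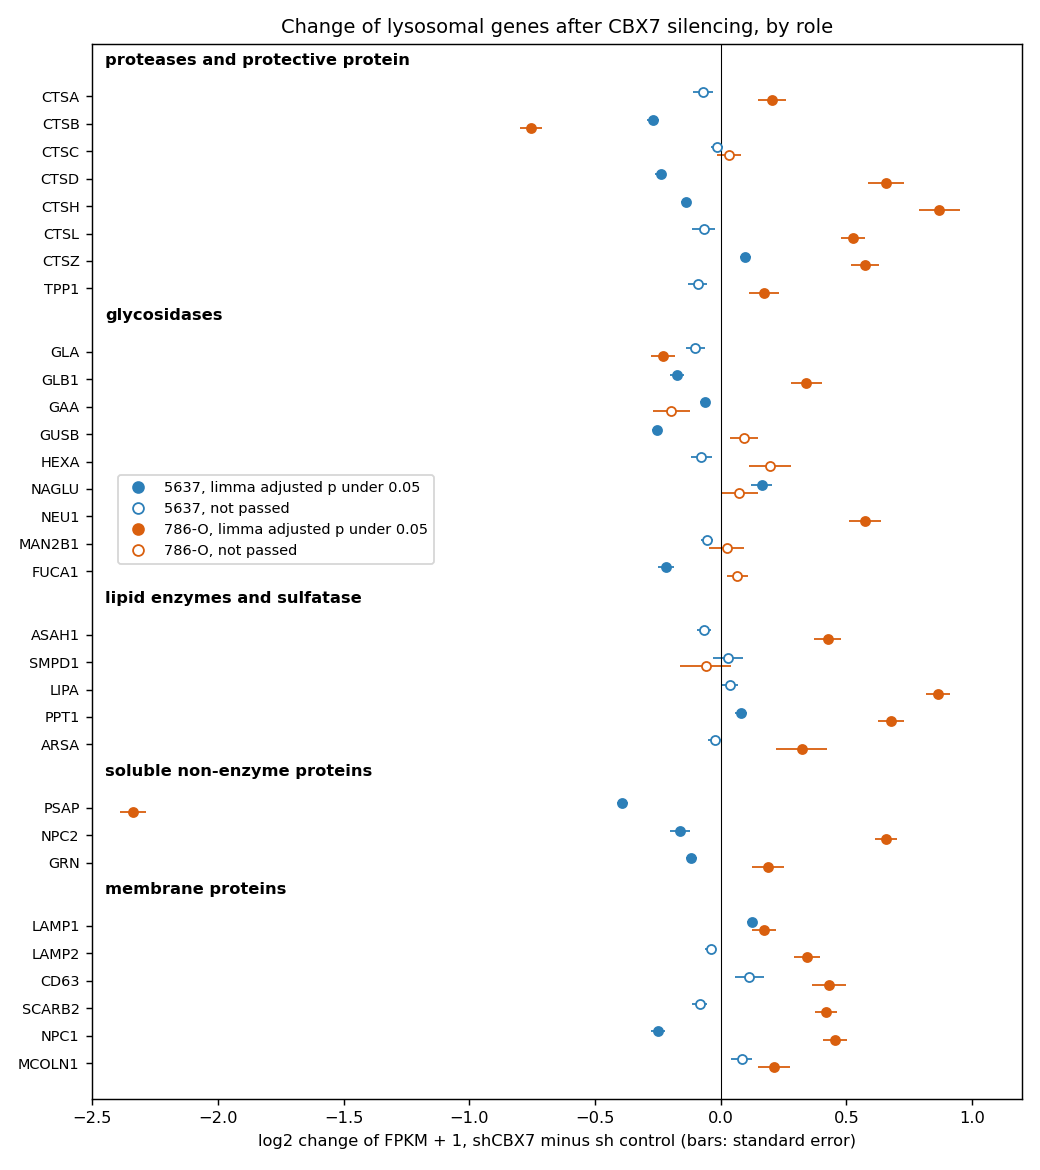
Log2 change of FPKM + 1 after CBX7 silencing for each lysosomal gene (rows, grouped by role), with its standard error, in 5637 (blue) and 786-O (orange); filled points passed limma at an adjusted p under 0.05. PSAP in 786-O lies at -2.34, and 20 of the 31 genes have filled orange points to the right of 0.

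The changes were also larger in 786-O. None of the 30 tested genes reached a 1.25-fold rise in 5637, where 7.98% of all tested genes did, and 1 (PSAP; 3.33%, against 6.80%) fell to 0.8-fold or less. In 786-O, 15 of 31 (48.4%) rose by at least 1.25-fold, against 24.8% of all tested genes, and 2 (6.45%, against 25.4%) fell to 0.8-fold or less. The median absolute log2 change was 0.10 in 5637, the same as for all tested genes, and 0.34 in 786-O, against 0.24. The libraries of the arms did not overlap for 20 genes in 5637, with shCBX7 higher for 5 and lower for 15. Over all tested genes in that line, 56.4% did not overlap, 30.7% higher and 25.7% lower. In 786-O the arms did not overlap for 26 genes, 22 higher and 4 lower, where over all tested genes 60.3% did not, 29.2% higher and 31% lower.

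**Figure D2:**
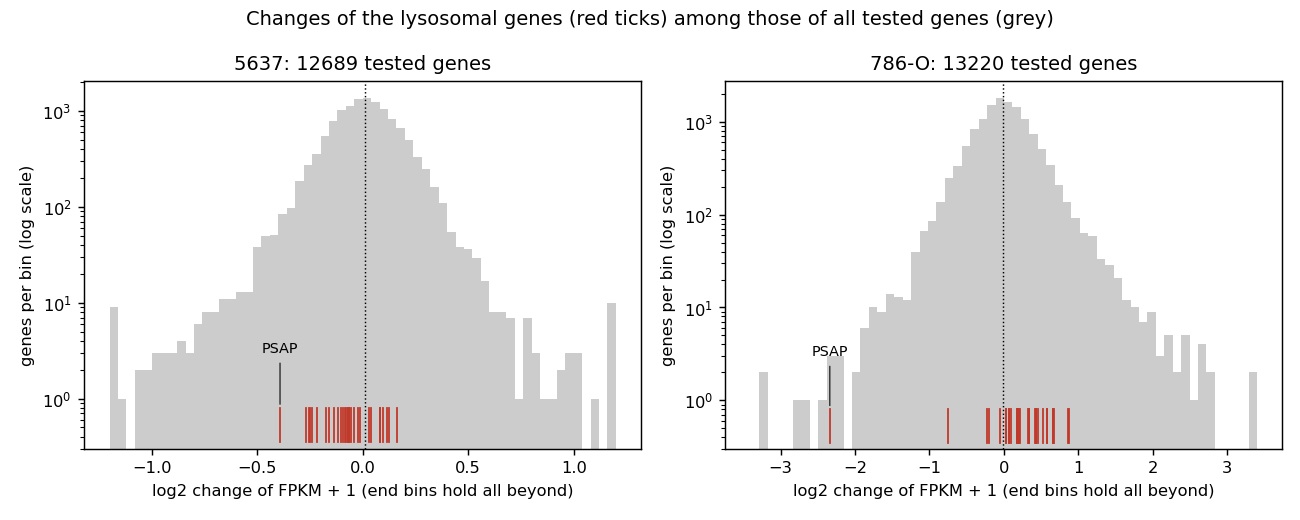
Number of tested genes per bin of log2 change (grey, log scale on the vertical axis; end bins hold everything beyond) in 5637 and 786-O, with the lysosomal genes as red ticks and the median of all genes as a dotted line. Most ticks sit left of 0 in 5637 and right of 0 in 786-O, where PSAP stands alone at the far left.

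PSAP, prosaposin, is the precursor of the saposins, small proteins that present sphingolipids to their hydrolases. Its gene lies at chr10:71816298-71851375 on the minus strand (GRCh38). It was the most abundant of the 31 in the controls of both lines, and it fell in each. In 786-O, the control libraries held 455, 408 and 425 FPKM and the shCBX7 libraries 82.7, 83.2 and 86.3. No library of one arm came near the other, and the silenced libraries lay close together. The mean went from 430 ± 23.9 to 84.1 ± 1.97 (SD, n = 3), 0.196-fold, with a log2 change of -2.34 (SE 0.05, adjusted p = 2.30e-07). Its change ranked 7 from the lowest among 13220 tested genes, and PSAP went from first to seventh in level among the 31.

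In 5637, PSAP also fell but by much less, from 381, 372 and 366 FPKM to 287, 281 and 284. The arms were again apart. The fold was 0.761 (log2 change -0.39, SE 0.02, adjusted p = 6.02e-05), and PSAP remained first in level. Its change ranked 249 from the lowest among 12689 tested genes.

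The genes on either side of PSAP did not show a fall of that size in 786-O. VSIR, 42800 bases away, was at 6.79 FPKM in the controls and 6.17 after silencing (log2 change -0.12, adjusted p = 0.228), and CHST3, 112990 bases away on the other side, at 9.78 and 9.70 (log2 change -0.01, adjusted p = 0.881). Of the other 4 tested neighbours, SLC29A3 (-0.42) and ANAPC16 (-0.34) fell, ASCC1 (0.21) rose and UNC5B (-0.09) did not pass.

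NPC2 and GRN, the other soluble proteins, fell in 5637 and rose in 786-O. NPC2 hands cholesterol to NPC1 at the lysosomal membrane. Its controls in 786-O were at 65.6, 61.8 and 61.5 FPKM and its shCBX7 libraries at 100.3, 102 and 97.6. All 3 silenced libraries were above all controls, and the fold was 1.59 (log2 change 0.66, adjusted p = 2.47e-05). In 5637, NPC2 went from 101, 97.5 and 96.9 to 90.0, 82.6 and 91.2, 0.894-fold (log2 change -0.16, adjusted p = 0.0140), also with no overlap. GRN encodes progranulin, a secreted glycoprotein cut into granulins in the lysosome. It fell in 5637 from 111 ± 2.34 to 102 ± 0.28 FPKM (SD, n = 3; log2 change -0.12, adjusted p = 0.00399). Its rise in 786-O, from 164 ± 13.5 to 186 ± 4.21 (log2 change 0.19, adjusted p = 0.0401), left little room between the highest control at 178 and the lowest silenced library at 182. Leaving out any library but the first control ends that call (adjusted p of 0.0782 to 0.112).

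**Figure D3:**
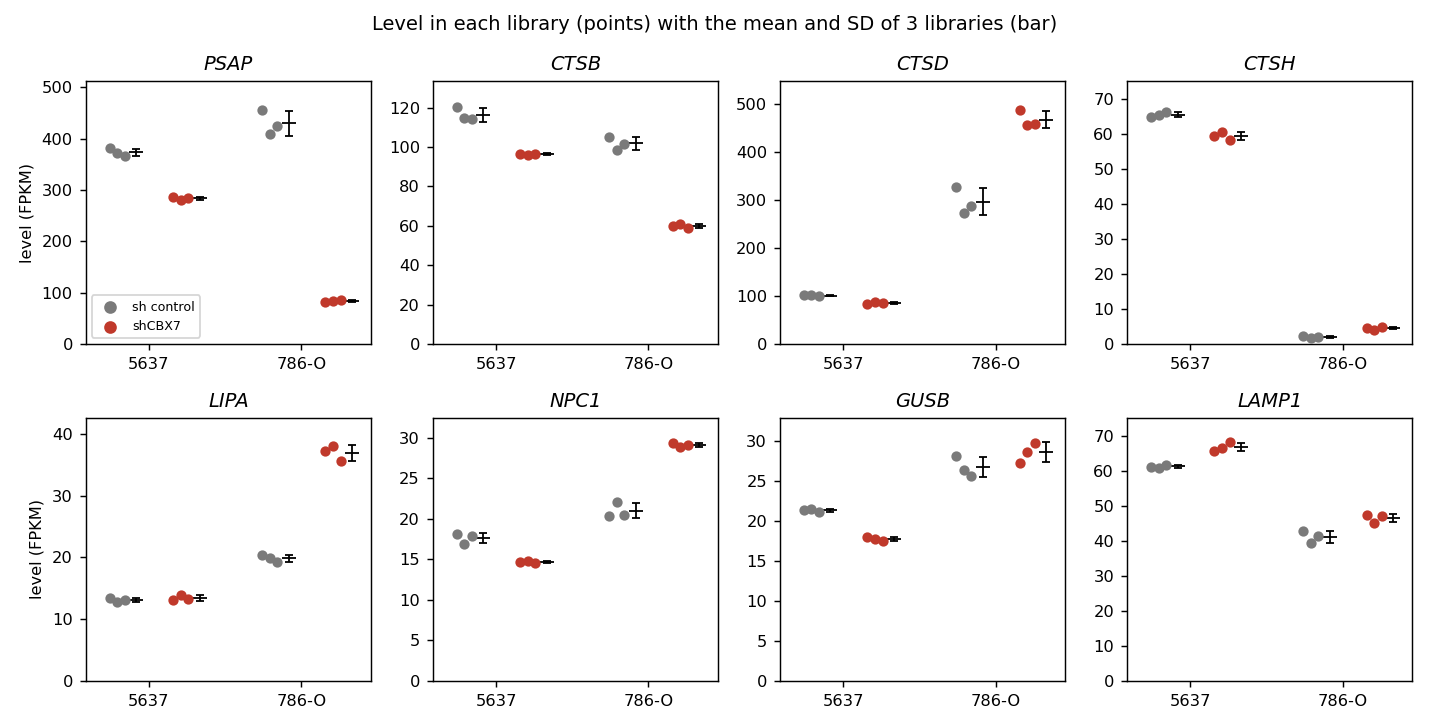
FPKM of 8 of the lysosomal genes in each library (points: grey, sh control; red, shCBX7), with the mean and SD of 3 libraries as a bar, in 5637 and 786-O. PSAP and CTSB drop in both lines, CTSD, CTSH and NPC1 drop in 5637 and rise in 786-O, and LIPA rises in 786-O with overlapping arms in 5637.

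CTSB, cathepsin B, a cysteine protease, passed as lower in both lines, as PSAP did. In 786-O its controls stood at 105, 98.5 and 102 FPKM and its shCBX7 libraries at 59.9, 61 and 58.9. The arms were far apart, at 0.589-fold (log2 change -0.75, SE 0.04, adjusted p = 1.25e-05). In 5637 the controls at 120, 115 and 114 and the silenced libraries at 96.6, 96.0 and 96.6 were apart as well, at 0.828-fold (log2 change -0.27, adjusted p = 2.92e-04).

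CTSD, cathepsin D, the main aspartic protease of the lysosome, moved in opposite directions. In 786-O it went from 328, 274 and 288 to 488, 457 and 459 FPKM. Even the lowest silenced library was well above the highest control (1.58-fold, log2 change 0.66, SE 0.07, adjusted p = 2.26e-04). In 5637 it went from 103, 102 and 99.5 to 83.8, 87.0 and 86.4 (0.846-fold, log2 change -0.24, adjusted p = 3.27e-04), again without overlap. CTSH, cathepsin H, an aminopeptidase, had the largest log2 rise of the 31 in 786-O, from 2.37, 1.86 and 1.96 to 4.73, 4.19 and 4.86 FPKM (2.23-fold, log2 change 0.87, adjusted p = 1.22e-04). These are low levels in a line where a library held 191 to 529 reads of the gene. In 5637, where CTSH was abundant, it fell from 65.6 ± 0.74 to 59.5 ± 1.22 FPKM (SD, n = 3; log2 change -0.14, adjusted p = 0.00227).

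Cathepsins L and Z, both cysteine proteases, rose in 786-O. CTSL went from 63.5, 67.0 and 64.4 to 94.6, 97.1 and 90.4 FPKM (1.45-fold, log2 change 0.53, adjusted p = 7.97e-05), and CTSZ from 417, 372 and 406 to 581, 581 and 618 (1.49-fold, log2 change 0.57, adjusted p = 1.39e-04). After silencing, CTSZ was the most abundant of the 31 in that line at 593 ± 21.4 (SD, n = 3). In 5637, CTSZ was the one protease that rose, by 1.07-fold from 114 ± 2.84 to 122 ± 0.62 (log2 change 0.10, adjusted p = 0.0112), while CTSL was at 30.6 and 29.2 (adjusted p = 0.259).

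The remaining proteases changed little. CTSA, the protective protein that stabilises beta-galactosidase and sialidase, rose by 1.15-fold in 786-O, from 41.9 to 48.4 FPKM (adjusted p = 0.0173). The call is lost without shCBX7 library 1 (adjusted p = 0.0626) or control library 3 (adjusted p = 0.0581). TPP1, a tripeptidyl peptidase lost in a neuronal ceroid lipofuscinosis, rose from 6.68 to 7.65 (adjusted p = 0.0471), a call lost when any library but control 3 is left out (adjusted p of 0.0682 to 0.147). In 5637 neither passed (adjusted p = 0.186 and 0.0960), although TPP1 did without control library 2 (adjusted p = 0.0135). CTSC, cathepsin C, which activates serine proteases, passed in neither line (47.1 and 46.6 FPKM in 5637, 11.6 and 11.9 in 786-O).

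Of the 8 glycosidases tested in 5637, 1 rose (12.5%, against 24.4% of all tested genes) and 4 fell (50%, against 20.2%). Of the 9 in 786-O, 2 rose (22.2%, near the 24.7% of all tested genes) and 1 fell (11.1%, against 26.2%). GLB1, beta-galactosidase, did both. It fell in 5637 from 17.0, 17.9 and 17.3 to 15.2, 15.7 and 15.1 FPKM (log2 change -0.18, adjusted p = 0.00229) and rose in 786-O from 37.0, 33.8 and 34.5 to 48.1, 42.7 and 43.3 (log2 change 0.34, adjusted p = 0.00273). The arms were apart in each line. GUSB, beta-glucuronidase, fell in 5637 from 21.4, 21.5 and 21.1 to 18.0, 17.7 and 17.5, 0.832-fold (log2 change -0.25, adjusted p = 1.59e-04). In 786-O its arms overlapped, with controls between 25.7 and 28.2 and silenced libraries between 27.3 and 29.8 (adjusted p = 0.192). FUCA1, alpha-fucosidase, fell in 5637 from 25.7 to 22 FPKM (log2 change -0.22, adjusted p = 0.00165) and did not pass in 786-O (37.4 and 39.2, adjusted p = 0.220).

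The other glycosidases differed one from another. GLA, alpha-galactosidase A, was the single glycosidase to fall in 786-O, from 27.4, 27.9 and 26.0 to 23.1, 22.3 and 23.6 FPKM (log2 change -0.23, adjusted p = 0.00569), and its values in 5637 (20.9 and 19.4) did not pass (adjusted p = 0.0697), although the arms were apart and it passed as lower with quantile normalization (adjusted p = 0.0482) or median centring (adjusted p = 0.0487). GAA, the glycogen-degrading alpha-glucosidase, was lower by 0.06 on the log2 scale in 5637 (47.2 and 45.1 FPKM, adjusted p = 0.0293), a call lost when any single library is left out (adjusted p of 0.0517 to 0.0847). In 786-O, where GAA was at 2.75 and 2.28, it did not pass (log2 change -0.20, adjusted p = 0.0601) except without shCBX7 library 2 (adjusted p = 0.0353). NAGLU, which degrades heparan sulfate, rose in 5637 from 8.03 to 9.10 FPKM (log2 change 0.16, adjusted p = 0.0153). Neither HEXA, the alpha subunit of beta-hexosaminidase, nor MAN2B1, the alpha-mannosidase, passed in either line (adjusted p of 0.0880 to 0.795), although MAN2B1 did in 5637 with quantile normalization (adjusted p = 0.0400) and HEXA in 786-O with voom (adjusted p = 0.0106). Without control library 1 of 786-O, HEXA (adjusted p = 0.0166) and NAGLU (adjusted p = 0.0193) passed as higher there.

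NEU1, the lysosomal sialidase, could be followed only in 786-O. There it rose from 24.4, 20.9 and 21.6 to 33.9, 33.1 and 33.8 FPKM (1.51-fold, log2 change 0.57, adjusted p = 2.32e-04), with no overlap. In the 5637 table it was between 0 and 0.0287 FPKM in every library. NEU1 lies in the major histocompatibility region of chromosome 6. Of the 36 genes within 1000000 bases of it that averaged at least 5 FPKM in 786-O, 33 (91.7%) were under 0.5 in the 5637 table, against 281 of 6025 such genes (4.66%) over the whole genome. The low values thus extend over the neighbourhood, and what lies behind them was not tested.

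Among the lipid enzymes 4 of 5 rose in 786-O (80%, against 24.7% of all tested genes) and none fell (against 26.2%). LIPA, the acid lipase that frees cholesterol from its esters, went from 20.4, 19.9 and 19.2 to 37.2, 38.0 and 35.5 FPKM. Each silenced library was far above each control (1.86-fold, log2 change 0.86, SE 0.05, adjusted p = 1.01e-05). In 5637 the arms of LIPA overlapped, with controls at 13.5, 12.7 and 13.1 and silenced libraries at 13.1, 14.0 and 13.3 (adjusted p = 0.390). PPT1, which removes palmitate from proteins, rose in 786-O from 26.5, 24.4 and 25.0 to 42.0, 42.2 and 38.9 (1.62-fold, log2 change 0.68, adjusted p = 4.87e-05). Its rise in 5637 was 1.06-fold, from 21.3 to 22.6 FPKM (adjusted p = 0.0351), and without any one of 5 of the 6 libraries it did not pass (adjusted p of 0.0659 to 0.0954). PPT1 shares 1189 exon bases (23.4%) with CAP1 on the opposite strand, and CAP1 rose as well, by 0.33 in 5637 and 0.55 in 786-O on the log2 scale. The strand setting of the counting is not given in the sources used here, so the part of CAP1 in the PPT1 values was not tested.

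ASAH1, acid ceramidase, rose in 786-O from 3.98, 4.0 and 3.81 to 5.39, 5.87 and 5.64 FPKM (1.43-fold, log2 change 0.43, adjusted p = 4.86e-04). ARSA, arylsulfatase A, which cleaves sulfatide with the help of saposin B, rose there from 19.7, 15.4 and 17.7 to 24.7, 20.4 and 21.6. The closest libraries were 19.7 in the controls and 20.4 after silencing (log2 change 0.32, adjusted p = 0.0298), and leaving out any library but control 1 or shCBX7 2 ends the call (adjusted p of 0.0614 to 0.0927). SMPD1, acid sphingomyelinase, passed in neither line (8.41 and 8.57 FPKM in 5637, 12.3 and 11.8 in 786-O). In 5637 neither ASAH1 (4.84 and 4.57) nor ARSA (17.2 and 16.9) passed, at adjusted p of 0.10 and 0.572, although ASAH1 did with quantile normalization (adjusted p = 0.0427) or median centring (adjusted p = 0.0499).

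All 6 membrane proteins rose in 786-O, where 24.7% of all tested genes did. NPC1, which exports cholesterol from the lysosome, went from 20.4, 22 and 20.5 to 29.3, 28.8 and 29.1 FPKM (1.39-fold, log2 change 0.45, adjusted p = 1.79e-04). SCARB2, also LIMP-2, a receptor that carries a hydrolase to the lysosome, went from 16.1, 16.9 and 16.0 to 22.2, 22.4 and 21.8 (1.36-fold, log2 change 0.42, adjusted p = 1.98e-04). In both genes the silenced libraries were tightly grouped and well above the controls.

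CD63, a tetraspanin of late endosomes, rose in 786-O from 312, 273 and 299 to 370, 406 and 418 FPKM (1.35-fold, log2 change 0.43, adjusted p = 0.00139), and LAMP2 from 40.6, 44.7 and 43.9 to 55.9, 55.5 and 53.0 (1.27-fold, log2 change 0.34, adjusted p = 0.00116). LAMP1 and MCOLN1, the latter a calcium channel of the lysosomal membrane, rose by less. LAMP1 went from 41.3 to 46.7 FPKM (adjusted p = 0.0187) and MCOLN1 from 5.31 to 6.31 (adjusted p = 0.0258). Both calls are lost in 4 or 5 alternatives, among them the omission of shCBX7 library 1 (adjusted p = 0.0636 and 0.0876), shCBX7 library 3 (0.0622 and 0.0536) or control library 2 (0.0532 and 0.0682). LAMP1 also failed without control library 3 (adjusted p = 0.0589), and MCOLN1 without shCBX7 library 2 (adjusted p = 0.0509).

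In 5637 the membrane proteins split. NPC1 fell from 18.1, 16.9 and 17.8 to 14.7, 14.7 and 14.5 FPKM (0.832-fold, log2 change -0.25, adjusted p = 5.96e-04). LAMP1 rose from 61.3, 61 and 61.9 to 65.9, 66.8 and 68.4 (1.09-fold, log2 change 0.12, adjusted p = 0.00271). The arms of NPC1 and of LAMP1 did not overlap. SCARB2 missed the threshold at an adjusted p of 0.050 (log2 change -0.08) and passed as lower in 5 of 14 alternatives, among them voom (adjusted p = 0.0116), quantile normalization (adjusted p = 0.0170) and the omission of shCBX7 library 2 (adjusted p = 0.0276). LAMP2, CD63 and MCOLN1 did not pass (adjusted p of 0.142 to 0.189), although CD63 did without shCBX7 library 1 (adjusted p = 0.0465) and with voom (adjusted p = 0.0276).

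The change itself was compared between the lines by an interaction term, the change in 5637 minus the change in 786-O. NEU1 is left out of the counts, because its level near 0 in the 5637 table leaves no change to compare. The term passed for 22 of the other 30 genes (73.3%, against 53.3% of all tested genes). Genes near 0 in one line were not left out of all tested genes, and with NEU1 the share of the 31 was 74.2%. For 20 genes (66.7%, against 24.3%) the change in 5637 was the lower, and for 2, PSAP and CTSB (6.67%, against 29%), it was the higher, as both fell further in 786-O. The terms were 1.95 (SE 0.05) for PSAP and 0.48 (SE 0.05) for CTSB. At the other end stood CTSH at -1.01 (SE 0.08), CTSD at -0.90 (SE 0.08), LIPA at -0.83 (SE 0.05), NPC2 at -0.82 (SE 0.06) and NPC1 at -0.70 (SE 0.05). LAMP1, at -0.05 (SE 0.05, adjusted p = 0.429), did not pass. HEXA (-0.27) was lost without 5 of the 12 libraries (adjusted p of 0.0505 to 0.0656) and ARSA (-0.34) without 3 (adjusted p of 0.0513 to 0.0538). GLA passed without control library 1 of 5637 (adjusted p = 0.0291) and GAA without shCBX7 library 2 of 786-O (adjusted p = 0.0176). CBX7 was left at 83.3% in one line and 61% in the other, and its part in these differences was not tested.

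By pairs of calls, 6 genes fell in 5637 and rose in 786-O (CTSD, CTSH, GLB1, NPC2, GRN and NPC1), 3 rose in both (CTSZ, PPT1 and LAMP1) and 2 fell in both (CTSB and PSAP). No gene rose in 5637 and fell in 786-O. A further 10 passed as higher in 786-O and did not pass in 5637. GAA, GUSB and FUCA1 passed as lower and NAGLU as higher in 5637 without passing in 786-O, and GLA passed as lower in 786-O without passing in 5637. Over all tested genes, 44.5% passed in 5637 and 51% in 786-O, so pairs of calls are common. The share of all genes with each pair was not taken, so these counts only list the genes. The libraries of each line were normalized in separate tables, so no level was tested across lines.

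Summed over the 31 genes, the level went from 1550, 1533 and 1520 FPKM to 1376, 1380 and 1393 in 5637, which is 0.901-fold, with no overlap between arms. In 786-O the sum went from 2396, 2152 and 2260 to 2539, 2519 and 2568, 1.12-fold. Without PSAP, the sum in 786-O went from 1940, 1744 and 1835 to 2456, 2436 and 2481, 1.34-fold, and in 5637 the fold was 0.946. PSAP made up 18.9% ± 0.11 (SD, n = 3) of the sum in the 786-O controls and 3.31% ± 0.05 after silencing, where in 5637 its share went from 24.3% ± 0.25 to 20.5% ± 0.26. Control library 1 of 786-O was the highest control for 21 of the 31 genes. The total implied by its FPKM was 16693519 reads, below the 16961808 recovered in its listed genes. In the other 786-O libraries the implied total was above the recovered reads, and the part of this in the levels was not tested. Without control library 1 the count of genes called in that line was 24, against 23 with it.

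**Figure D4:**
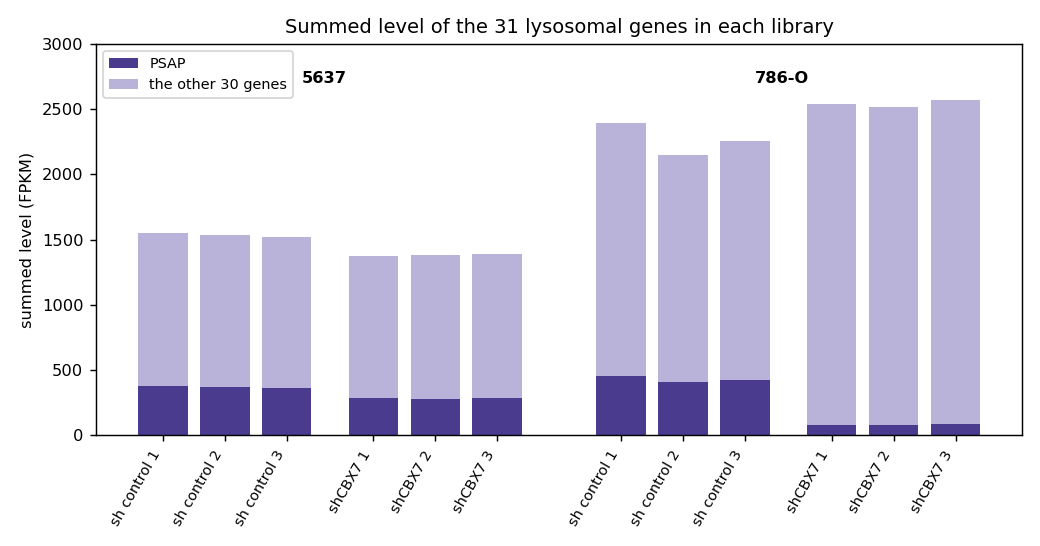
Summed FPKM of the 31 lysosomal genes in each library (bars), split into PSAP (dark) and the other 30 genes (light), for sh control and shCBX7 libraries of 5637 and 786-O. The dark part shrinks from 18.9% to 3.31% of the bar in 786-O while the light part grows.

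The wider lysosomal system was described from 7 lists with 140 further genes. In 5637, 126 of them were tested, of which 25 rose (19.8%, against 24.4% of all tested genes) and 32 fell (25.4%, against 20.2%), with a median log2 change of -0.01. In 786-O, 129 were tested, of which 69 rose (53.5%, against 24.7%) and 24 fell (18.6%, against 26.2%), with a median of 0.24. Among the 69, ACP5, CST2, CSTA and FNIP2 had control means under 0.5 FPKM and were tested only through their silenced libraries. The counts of the single lists stand against the same shares of all tested genes. The V-ATPase subunits, which pump protons into the lysosome, rose in 10 of 17 cases in 786-O (58.8%, against 24.7%) and fell in none (against 26.2%). ATP6V0E1 went from 148 to 228 FPKM, ATP6V1G1 from 45.7 to 87.1 and ATP6V1C1 from 11.1 to 18.3. In 5637, 3 rose (17.6%, against 24.4%) and 3 fell (17.6%, against 20.2%). The named subunits moved there by less than 1.25-fold (ATP6V1B2 at 0.849-fold, ATP6V0A1 at 0.863-fold and ATP6V0D1 at 1.22-fold).

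Other hydrolases and their cofactors rose in 19 of 31 cases in 786-O (61.3%, against 24.7% of all tested genes) and fell in 3 (9.68%, against 26.2%). ACP5, an acid phosphatase, went from 0.481 to 3.15 FPKM (log2 change 1.49) and entered the test through its silenced libraries only, as its control mean was under 0.5, while PLBD2, a phospholipase B-like protein, fell from 12.6 to 6.64. In 5637, 4 of 27 rose (14.8%, against 24.4%) and 8 fell (29.6%, against 20.2%). SCPEP1, a serine carboxypeptidase, fell there from 124 to 101 FPKM, MANBA, the beta-mannosidase, fell from 12.6 to 11, and ACP2, an acid phosphatase, rose from 3.74 to 5.19.

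Other membrane proteins rose in 9 of 18 cases in 786-O (50%, against 24.7% of all tested genes) and fell in 4 (22.2%, against 26.2%). CD164, a sialomucin, rose there from 25.8 to 47.3 FPKM and TMEM59 from 12 to 20.9, while SIDT2 fell from 2.11 to 0.929. In 5637, 4 of 19 rose (21.1%, against 24.4%) and 4 fell (21.1%, against 20.2%). CD164 was lower there (42.7 to 39.3), LAMP3 lower (4.97 to 4.08) and TMEM192 higher (2.26 to 2.84). The cystatins, which inhibit cysteine cathepsins, rose in all 5 tested cases in 786-O. CSTB went from 65.4 to 112 FPKM, CST3 from 142 to 209 and CST7 from 2.59 to 8.56. The other two, CST2 (0.281 to 1.09) and CSTA (0.463 to 0.813), were under 0.5 in the controls and were tested only through their silenced libraries, and the call of CSTA is lost in 7 of 14 alternatives (adjusted p up to 0.120). In 5637, CST3 rose (27.3 to 30.2) and CSTB fell (83.7 to 77.1) among 4 tested.

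The sorting genes were mixed in both lines. In 786-O, 8 of 17 rose (47.1%, against 24.7% of all tested genes) and 6 fell (35.3%, against 26.2%). In 5637, 5 of 18 rose (27.8%, against 24.4%) and 5 fell (27.8%, against 20.2%). M6PR, the smaller mannose 6-phosphate receptor, rose in 786-O from 33.9 to 47.4 FPKM, and GNPTG, a subunit of the enzyme that starts the tag, from 14.8 to 25.2. GGA3, an adaptor that loads the receptors into vesicles, fell there from 5.74 to 2.63. In 5637, IGF2R, the larger receptor, rose from 24.7 to 36.2 FPKM (1.47-fold) and AP1B1, an adaptor subunit, from 12.5 to 15.2, while SORL1, a sorting receptor, fell from 13.0 to 11.2.

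Of 22 autophagy genes in 786-O, 11 rose (50%, against 24.7% of all tested genes) and 6 fell (27.3%, near 26.2%). In 5637, 4 of 22 rose (18.2%, against 24.4%) and 6 fell (27.3%, against 20.2%). The cargo receptors SQSTM1 (81.1 to 149 FPKM) and OPTN (27.3 to 51.3) rose in 786-O. GABARAPL1, which helps to close autophagosomes, fell in both lines, from 26.2 to 12.4 in 786-O and from 30.8 to 22.1 in 5637. Also in 5637, GABARAPL2 fell from 18.6 to 16.9 and PIK3C3, the lipid kinase of the pathway, rose from 2.27 to 2.68.

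**Figure D5:**
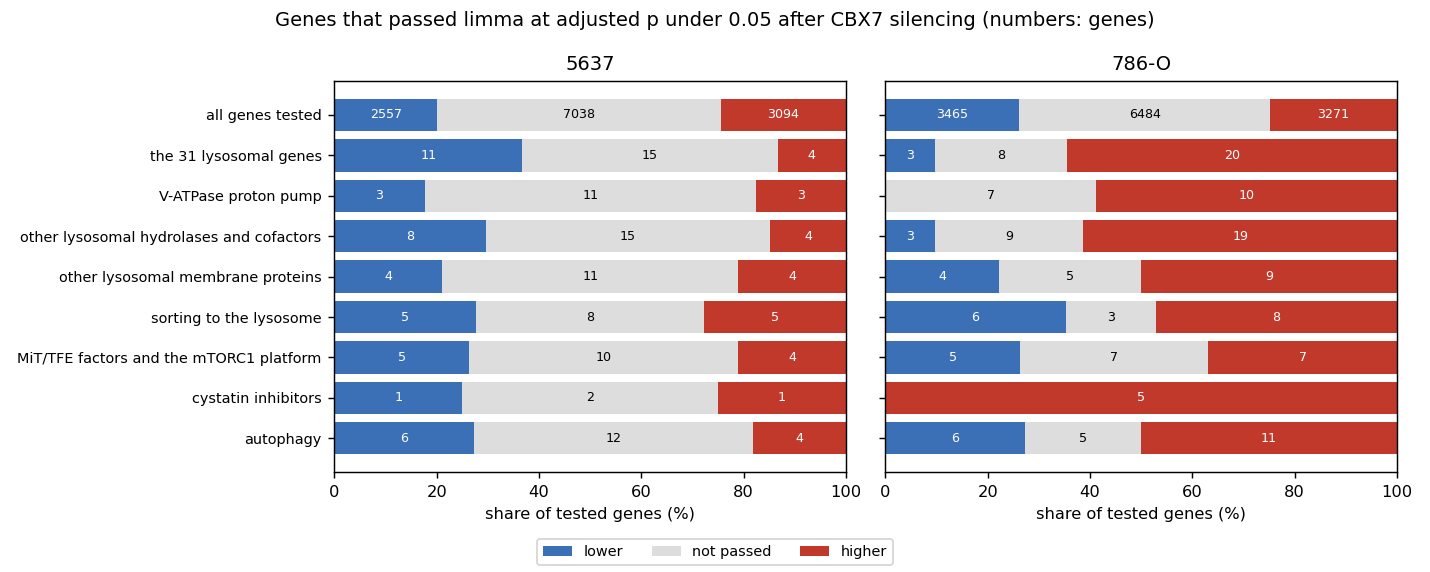
Share of tested genes (horizontal axis, percent; numbers are genes) that passed limma as lower (blue) or higher (red) or did not pass (grey) after CBX7 silencing, for all genes, the 31 lysosomal genes and 7 related lists, in 5637 and 786-O. In 786-O the 31 genes, the V-ATPase, the other hydrolases and the cystatins are mostly red, where all genes are near balance. CST2 and CSTA among the 5 cystatins, and ACP5 among the hydrolases, were tested there only through their silenced libraries.

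The transcription factors of the CLEAR element and the mTORC1 platform that holds them in the cytoplasm gave 19 tested genes in each line. In 5637, 4 rose (21.1%, against 24.4% of all tested genes) and 5 fell (26.3%, against 20.2%). In 786-O, 7 rose (36.8%, against 24.7%) and 5 fell (26.3%, near 26.2%). Among the 7, FNIP2 (0.324 to 0.917 FPKM) was under 0.5 in the controls and was tested only through its silenced libraries. TFEB rose in 786-O from 3.35 to 5.79 FPKM (log2 change 0.64, adjusted p = 2.17e-04) and did not pass in 5637 (1.5 and 1.28, adjusted p = 0.103). TFE3 rose in 786-O from 23.0 to 26.0 (log2 change 0.17, adjusted p = 0.0370), a call lost in 7 of 14 alternatives (adjusted p up to 0.132). In 5637, TFE3 fell from 32.6 to 27.8 (log2 change -0.22, adjusted p = 2.26e-04). MITF fell in 786-O from 3.14 to 1.99 (log2 change -0.46, adjusted p = 0.00177), and in 5637 it was at 0.943 and 0.933. RRAGC, a Rag GTPase of the platform, rose in 786-O from 2.41 to 5.54 FPKM and LAMTOR2, one of its anchors, fell from 58.8 to 36.6. In 5637, FLCN, which acts on the Rag GTPases, fell from 4.93 to 3.82 and RRAGD from 11.9 to 9.92.

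The promoters of the 31 genes were searched for the core of that element, because so many of them moved together in 786-O. RefSeq windows from 250 bases before to 50 after the start (GRCh38.p14) were found for 24 genes, as 34 windows. The 6-letter E-box CACGTG, which reads the same on both strands, was in 7 of 34 windows (20.6%), against 2548 of 35116 windows of that length over all genes (7.26%). The longer form TCACGTGA, which contains it, was in 4 windows (11.8%, against 0.980%), those of CTSA, GAA, LAMP1 and MCOLN1. The stretches below lie before the start of 4 genes that hold an E-box, and capitals mark each E-box. They were picked by position, as stretches outside the annotated gene, and not by the calls. CD63, CTSA and CTSD also hold an E-box but gave no such stretch. Those shown belong to LAMP1 and MCOLN1 (both higher in 786-O, LAMP1 also in 5637), NEU1 (higher in 786-O) and GAA (lower in 5637). They were read from chr13:113297032-113297117 and chr13:113297196-113297231 on the plus strand for LAMP1, then chr19:7522568-7522623 on the plus strand, chr6:31862927-31862962 on the minus strand and chr17:80101490-80101555 on the plus strand.
LAMP1: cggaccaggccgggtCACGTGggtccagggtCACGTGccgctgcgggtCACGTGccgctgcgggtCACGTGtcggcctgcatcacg
LAMP1, nearer the start: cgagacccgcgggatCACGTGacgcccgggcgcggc
MCOLN1: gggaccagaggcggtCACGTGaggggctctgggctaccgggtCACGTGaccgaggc
NEU1: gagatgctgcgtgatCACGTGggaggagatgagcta
GAA: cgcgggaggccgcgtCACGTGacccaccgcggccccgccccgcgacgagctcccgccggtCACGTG

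The first LAMP1 stretch held 4 E-boxes, from 192 to 142 bases before the start, none of them in the longer form. The second held 1, 28 bases before the start, which has it. LAMP1 has another E-box, also in the longer form, whose first base lies 1 base before the start. It is not shown. MCOLN1 had E-boxes 41 and 14 bases before its start, GAA 76 and 31, and NEU1 126. Of the 7 genes with an E-box (also CD63, CTSA and CTSD), 6 rose in 786-O and GAA did not pass. Of the 17 matched genes without one, 11 rose, GLA fell and 5 did not pass. Over all tested genes in 786-O, 24.7% rose and 26.2% fell, so rises were frequent in either set. The calls of CTSA, LAMP1 and MCOLN1 in the first set and of TPP1 and GRN in the second did not hold in every alternative. In 5637, LAMP1 rose and CTSD and GAA fell among the 7, where of the 17 without an E-box 2 rose and 7 fell. Over all tested genes in that line, 24.4% rose and 20.2% fell. A match of letters is a description and does not show that a factor binds there.

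Signs of other cell types and of shared reads were set beside these results. The defining leukocyte markers PTPRC, AIF1, TYROBP and CD3E were at or near 0 in all 12 libraries. The summed level of the 10 leukocyte and macrophage markers was 44.2 to 46.3 FPKM in the 5637 controls and 38.9 to 39.8 after silencing, and 18.1 to 22 and 11.5 to 12.9 in 786-O. LAPTM5, itself a lysosomal membrane protein, carried most of it and fell in both lines (43.5 to 37.5 FPKM in 5637, 17.5 to 8.07 in 786-O). CSF1R, a macrophage receptor, rose in 786-O from 1.38 to 3.16 (adjusted p = 7.79e-05), and CD14 did not pass (1.55 and 1.59 in 5637, 0.851 and 0.718 in 786-O). The 6 fibroblast markers summed to 14.6 to 15.2 and 12.5 to 13.3 FPKM in 5637, nearly all of it COL1A1, and to 2.12 to 2.58 and 2.93 to 3.44 in 786-O, where LUM rose from 1.66 to 2.76 (adjusted p = 0.00222), with DCN, COL1A2 and COL3A1 at or near 0 in both lines. The endothelial markers summed to at most 0.760 FPKM in any library. The 9 bladder epithelial markers summed to 2123 to 2139 and 2315 to 2343 FPKM in 5637. In 786-O the same markers summed to 331 to 402 FPKM in the controls and 431 to 480 after silencing. There KRT7 (1.15 to 2.55), KRT8 (125 to 170) and KRT18 (55.3 to 74.4) rose, and KRT19 (179 and 210) did not pass. The 8 renal markers summed to 589 to 605 and 599 to 638 in 786-O. More than any other renal marker, VIM made up that sum (351 and 341 FPKM), while CDH6 (13.4 to 7.47) and PAX8 (37.8 to 30.3) fell, and GGT1 (35.4 to 49.1), CDH2 (61.6 to 80.2) and VCAM1 (95.4 to 115) rose. The part of these markers in the lysosomal changes was not tested. In the annotation 14 of the 31 genes share exon bases with another gene, 11 of them on the opposite strand, and CTSL, GUSB and FUCA1 have pseudogenes of their own name, so their levels may be split or shared by the counting.

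Another model gave similar counts. With voom on the recovered reads, 17 of 28 fitted genes passed in 5637 (50% of all fitted genes did) and 24 of 31 passed in 786-O (54.8% of all did). In 5637, 13 of 15 calls held in every alternative tried, and GAA and PPT1 did not. In 786-O, 17 of 23 held, the exceptions being CTSA, TPP1, ARSA, GRN, LAMP1 and MCOLN1. Genes that did not pass as reported and passed under some alternative were SCARB2, GLA, ASAH1, MAN2B1, CD63 and TPP1 in 5637, and HEXA, GAA and NAGLU in 786-O.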

How the data were processed

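Per the labels' protocols, the RNA-seq libraries came from a directional NEBNext kit. Per the file headers, the deposited values are FPKM as the authors computed them, with 1 table for each line. The sources used here give neither the aligner, nor the counter, nor the strand setting. The submitters' processing notes name a mouse genome build although the samples are human. All 31 genes matched GENCODE 29 (GRCh38) in position by the coordinates given for 786-O. Positions were not checked for 5637. The titles of 2 control samples of 5637 carry another number while their cell line label is 5637, and for the control columns of that table the group is known but not the single sample.

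FPKM were turned into log2(FPKM + 1). Within each line, limma 3.58.1 (lmFit, eBayes with trend, R 4.3.3) compared shCBX7 with sh control for genes that averaged 0.5 FPKM or more. The Benjamini-Hochberg adjustment ran over all tested genes, and a gene passed under 0.05. Changes were compared between lines by an interaction term over 12 libraries, for 12777 genes found in both tables by symbol. Whole reads were recovered for 28083 of 29890 genes (94.0%) in 5637, GLA and TPP1 not among them, and for all 58735 in 786-O. These reads gave the depth and a voom fit, while the main test used FPKM, which are not counts. The scripts were tested on simulated data.

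The 31 genes, the 7 related lists and the marker lists were chosen with earlier results of these data known. All 31 genes were named. Of each related list and line up to 3 called genes with the smallest p and a mean of at least 1 FPKM were named, besides TFEB, TFE3, MITF and CBX7. VSIR, CHST3 and the other neighbours of PSAP, CAP1, CST2, CSTA, FNIP2 and the markers were named after their values were seen. A gene that the rule picked is not reported here. Alternatives were quantile normalization, rescaling to TPM, median centring, a pseudocount of 0.1, all genes without a filter, no trend, voom, the replicate number as a block and each library left out.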

Additional observations from a re-analysis of the deposited data

Results flagged for a closer look

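The change after CBX7 silencing differed between 5637 and 786-O for 22 of the 30 genes with a change in both lines by the limma interaction term. Of all tested genes, those near 0 in one line included, 53.3% passed. Each of the 22 is given because its change differed, with NEU1, as the change in 5637 minus the change in 786-O on the log2 scale. The term was above 0 for PSAP (1.95) and CTSB (0.48), which fell further in 786-O. Among the proteases it was -1.01 for CTSH, -0.90 for CTSD, -0.59 for CTSL, -0.48 for CTSZ, -0.28 for CTSA and -0.26 for TPP1. Glycosidases gave -0.60 for NEU1, whose term rests on 786-O alone, -0.52 for GLB1, -0.35 for GUSB, -0.29 for FUCA1 and -0.27 for HEXA. For the lipid enzymes the terms were -0.83 for LIPA, -0.60 for PPT1, -0.49 for ASAH1 and -0.34 for ARSA. NPC2 had -0.82 and GRN -0.30. The membrane proteins gave -0.70 for NPC1, -0.50 for SCARB2, -0.38 for LAMP2 and -0.32 for CD63.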

How the results depend on the processing

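No gene changed direction while called under any alternative. Over the alternatives that kept all libraries, 13 to 19 of the 31 genes passed in 5637 (15 as reported) and 19 to 24 in 786-O (23 as reported). With each library left out in turn, 13 to 15 passed in 5637 (3 to 5 higher, 10 to 11 lower) and 17 to 24 in 786-O (14 to 21 higher, 3 to 4 lower). The difference between lines passed for 21 to 23 genes, NEU1 included, under every alternative run. The related lists gave 48 to 56 calls in 5637 and 81 to 94 in 786-O with a library left out. In 786-O, same-numbered libraries of the arms deviated together only weakly (correlations of 0.083, 0.077 and 0.057, each the highest for its own number, a hint from the data and not the design), and in 5637 the correlations were 0.023, -0.031 and -0.007, so the numbers were not taken to pair the samples. With the replicate block, 13 genes passed in 5637 (3 higher, 10 lower) and 22 in 786-O (19 higher, 3 lower). The fewest reads behind a value were 186 for GAA and 191 for CTSH in 786-O, and 274 for MCOLN1 in 5637, leaving aside NEU1 with at most 4 there.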
